A study of Mus musculus with 8 samples.

Results

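The cells described here are the unstimulated naive CD4+ T cells of the mouse spleen. They were taken as the cells that the authors' annotation places in the CD4 class and in a numbered naive cluster, and there were 3665 of them among 12846 cells in the whole data set and 4315 unstimulated CD4 cells. They came from 4 libraries, 2 labelled WT with 755 and 797 cells and 2 labelled SDHA-KO with 976 and 1137 cells. SDHA-KO cells were from B6 mice aged 8 to 12 weeks that carried Sdha fl/fl and CD4-Cre, and the controls are labelled only as WT. The study's text gives B6 mice as the source of its WT cells for single-cell sequencing. CD4-Cre acts in thymocytes that express both CD4 and CD8, so that all later CD4+ and CD8+ αβ T cells can carry the deletion. In some of its other experiments the study used Sdha fl/fl mice without Cre as controls, and nothing in the labels says that the controls here carried Cre. Effects of the Cre transgene and of the lost gene therefore cannot be told apart. All cells of these libraries were T cells purified from spleen with magnetic beads and not stimulated with anti-CD3 and anti-CD28. Dead cells were removed before sequencing. Whether the unstimulated cells were cultured, and for how long, is not given. The labels give replicate numbers but do not say whether replicates were separate mice. The p values therefore measure the spread between these libraries, estimated for each gene largely from other genes, and this spread may be technical.

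Naive CD4+ T cells are mature cells that have left the thymus and have not yet met antigen. They circulate between blood and lymphoid organs with the help of the chemokine receptor CCR7, are kept quiescent by transcription factors that include TCF-1 (gene Tcf7) and LEF-1, and survive on signals from the IL-7 receptor and from self peptide. SDHA is the catalytic flavoprotein of succinate dehydrogenase, or mitochondrial complex II, which oxidizes succinate in the tricarboxylic acid (TCA) cycle and passes the electrons to the electron transport chain (ETC). Resting T cells rely mainly on oxidative phosphorylation, so the comparison of SDHA-KO with WT naive cells addresses what the transcriptome of a resting cell looks like without this enzyme.

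Both SDHA-KO libraries held more UMIs than both WT libraries, in total and per cell. UMIs, the molecular tags that mark single captured mRNA molecules, came to 5483937 and 6059381 in WT and to 8559345 and 9522175 in SDHA-KO. Median UMIs per cell were 7102 and 7496 in WT and 8564.5 and 8184 in SDHA-KO. A gene at 20 CPM (its UMIs scaled to a common library total) had 110 UMIs in the smallest library, a counting error of 9.55%. Of all naive CD4 barcodes, 1 occurred in more than 1 library.

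The markers of the annotated identity were present in each library. Expression is given here as CPM without further scaling. Ccr7, the receptor that guides naive cells into lymph nodes, stood at 232 and 236 in WT against 235 and 232 CPM in SDHA-KO. Tcf7 stood at 325 and 351 in WT against 320 and 349 CPM in SDHA-KO. These levels overlapped between genotypes. Lef1 stood at 918 and 980 in WT against 710 and 855 CPM in SDHA-KO, which did not overlap. A Lef1 UMI was found in 98.1 ± 0.0740% of WT cells and in 97.2 ± 0.173% of SDHA-KO cells (SD, n = 2 libraries). Cd8a reached at most 4.13 CPM and Foxp3, the master factor of regulatory T cells, at most 3.39 CPM in any library. A Cd8b1 UMI was found in 9.01 ± 0.749% of WT and 7.84 ± 1.97% of SDHA-KO cells. Both a Cd4 UMI and a Cd8a or Cd8b1 UMI were found in 6.77 ± 0.0144% and 7.23 ± 1.97%.

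Markers of other cell types were scarce. The summed level of 2 CD8 markers lay between 14.3 and 24.1 CPM and that of 4 regulatory T cell markers between 36.6 and 55.0 CPM. Of 8 myeloid markers, the sum lay between 1.89 and 3.47 CPM in 3 libraries and at 47.8 CPM in SDHA-KO replicate 1, where a single cell held all 140 S100a8 UMIs and all 229 S100a9 UMIs. Of 8 γδ T cell markers, the sum lay between 6.93 and 9.85 CPM in WT and was 14.0 and 13.02 CPM in SDHA-KO. Of 8 B cell markers, the sum lay between 100.2 and 156 CPM, and most of it was Ighm. Igkc, the κ light chain, was found in 9.94% of cells of SDHA-KO replicate 1 and in 0.397% to 2.99% of cells of the other libraries.

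Cd4 itself differed between the genotypes. It encodes the coreceptor that binds MHC class II. It stood at 152 and 153 CPM in WT cells and at 593 and 698 CPM in SDHA-KO cells. A Cd4 UMI was found in 65.4 ± 0.869% of WT cells and in 94.8 ± 0.357% of SDHA-KO cells. With each cell thinned to 3000 UMIs, which left out 5 cells in each genotype, the shares were 37.2 ± 0.229% and 78.4 ± 0.913%. In CD8 naive cells of the same libraries, which should lack Cd4 RNA and had median depths of 8502 to 10271 UMIs, the shares before thinning were 0.643 ± 0.215% in WT and 3.10 ± 1.13% in SDHA-KO. The authors used Cd4 to assign cells to the CD4 class, so these values are a description. Cd4 is among the genes called higher in the fit over all genes given below, and nothing is read from that call.

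The 15 genes with the highest level in WT naive CD4 cells held 20.3 ± 0.0602% of UMIs. They were led by Gm42418, Malat1, a nuclear long noncoding RNA, and Rps29, a ribosomal protein, and they included mt-Atp6 and mt-Co3. The 95 ribosomal protein genes together held 36.0 ± 0.0569% of UMIs in WT and 35.6 ± 2.37% in SDHA-KO. Malat1 held 1.93 ± 0.0221% in WT and 1.43 ± 0.142% in SDHA-KO.

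Against CD8 naive cells of the same WT libraries, the genes with the highest ratio included known determinants of the CD4 lineage. Cd40lg, the ligand through which helper T cells license B cells, stood at 157 and 156 CPM in CD4 naive cells and at 2.28 and 1.47 CPM in CD8 naive cells. Zbtb7b, which encodes the lineage factor ThPOK, stood at 31.7 and 36.1 CPM against 0.285 and 0 CPM. Ly6c1, St8sia6, Myo10, Pdlim4, Gm15708, Itgb3 and Chn2 completed the 10 highest ratios with Cd4. Against CD4 effector memory (Tem) cells, Igfbp4 had the highest ratio, at 275 and 253 CPM in naive cells against 6.196 and 4.35 CPM. Auts2, Pdlim4, Ly6c1 and Dapl1 were also among the 10 highest. Ratios of annotated subsets are descriptions, since the annotation rests on the same counts.

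The annotation splits the naive CD4 cells into 5 clusters, all of which held cells of each library. Naive1, Naive2, Naive3 and Naive4 held 1057, 958, 866 and 701 cells, and Naive5 held 83. Naive5 differed most from the rest by interferon-induced genes, with Rsad2, Ifitm3, Ifit3b, Ifit3, Ifit1 and Isg15 leading, and its Isg15 level averaged 873 CPM. Naive1 was led by Egr1, an immediate early factor induced through the T cell receptor (TCR), and also by Ctla4 and Id3. In Naive3, Il7r averaged 824 CPM, and Tent5c and St8sia6 were among the leading genes. Naive2 and Naive4 had no gene with a mean log2 ratio above 0.61. Counts per library follow in the order WT 1, WT 2, SDHA-KO 1 and SDHA-KO 2, out of 755, 797, 976 and 1137 cells. Naive2 held 280, 257, 222 and 199 of them, and Naive4 103, 87, 285 and 226. Naive1 held 212, 248, 216 and 381, Naive3 146, 186, 226 and 308, and Naive5 14, 19, 27 and 23. Cluster genes and sizes are given as descriptions, and sizes were not tested between genotypes. The sums compared below run over all clusters, and what the cluster shares add to them was not tested.

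SDHA-KO was then compared with WT over libraries. From here on expression is CPM scaled by TMM, which corrects totals for composition, and genes with an adjusted p below 0.05 in edgeR's quasi-likelihood test (Benjamini-Hochberg over 10803 genes) are called. Sdha (chr13:74322254-74350280, minus strand, GRCm38) stood at 94.1 and 94.7 in the WT and 42.9 and 40.7 CPM in the SDHA-KO libraries. It fell by 1.18 ± 0.0985 on the log2 scale (SE, adjusted p = 8.94e-08), to 0.443 times the WT level. Counts from the 3′ end do not tell a recombined Sdha transcript from an intact one. A Sdha UMI was found in 48.3 ± 2.16% of WT and 28.9 ± 1.84% of SDHA-KO cells.

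In all, 386 genes (3.57%) were called, 121 higher (1.12%) and 265 lower (2.45%) in SDHA-KO, and 1756 passed an unadjusted p of 0.05. At least a 2-fold change was found in 34 of the higher and 69 of the lower genes. The groups did not overlap in any of the 386 called genes, as against 46.6% of all genes tested (22.8% with SDHA-KO above and 23.8% below). The number called depended on the libraries, with 903 without SDHA-KO replicate 1, 814 without SDHA-KO replicate 2, 266 without WT replicate 1 and 231 without WT replicate 2, and 114 of the 386 (32 higher, 82 lower; 1.06% of genes tested) were called in all of these fits. DESeq2 called 154 genes, and 146 of them were among the 386.

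**Figure D1:**
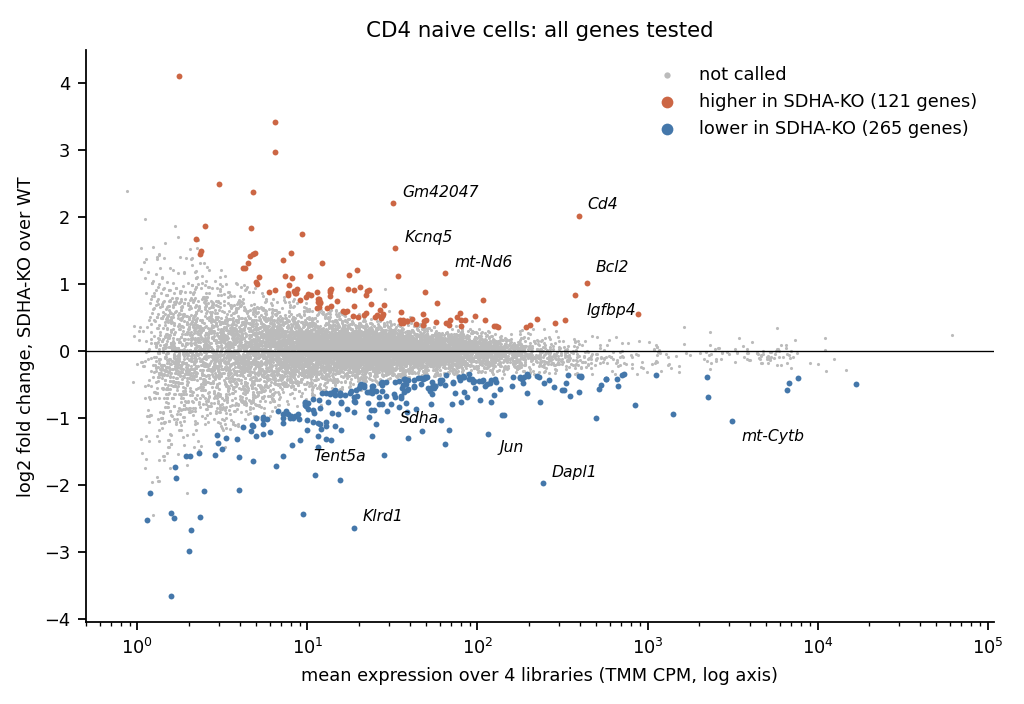
Log2 fold change of SDHA-KO over WT in naive CD4 cells (vertical axis) against mean expression over the 4 libraries in TMM CPM (horizontal log axis), with each dot a gene. The 121 called higher genes and the 265 called lower genes are coloured, and Dapl1 and Cd4 lie far from 0 for genes of their level.

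For called genes that averaged 20 CPM or more and whose groups did not overlap, the 12 largest falls were in genes of diverse function. Dapl1, which encodes a death-associated protein-like factor typical of quiescent T cells, was at 400 and 375 in the WT and 99.0 and 98.6 CPM in the SDHA-KO libraries. It fell by 1.97 ± 0.0966 on the log2 scale (adjusted p = 1.35e-11), and the share of cells with a Dapl1 UMI was 51.1 ± 1.77% in WT and 23.2 ± 1.65% in SDHA-KO. Thus both fewer cells with a detected transcript and a lower sum were seen. Fewer expressing cells and less RNA per cell cannot be told apart at this depth.

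Tent5a, a noncanonical poly(A) polymerase, was at 42.5 and 41.8 in the WT and 15.3 and 13.7 CPM in the SDHA-KO libraries (log2 fold change −1.54 ± 0.129, adjusted p = 8.94e-08). Ly6c1, a GPI-anchored surface antigen, was at 84.0 and 103 in the WT and 38.4 and 33.5 CPM in the SDHA-KO libraries (−1.38 ± 0.114, adjusted p = 8.94e-08). Auts2, a nuclear regulator of transcription, was at 66.0 and 44.3 in the WT and 22.6 and 22.3 CPM in the SDHA-KO libraries (−1.29 ± 0.145). For these genes the SDHA-KO libraries lay close together and far below both WT libraries. Il18r1, the ligand-binding chain of the IL-18 receptor, was at 30.0 and 39.1 in the WT and 16.7 and 15.8 CPM in the SDHA-KO libraries (−1.09 ± 0.143).

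Jun, a subunit of the AP-1 transcription factor, was at 161 and 164 in the WT and 46.2 and 90.8 CPM in the SDHA-KO libraries (−1.24 ± 0.172, adjusted p = 1.11e-04). The SDHA-KO libraries differed more from each other than the WT libraries did, and DESeq2 did not call the gene (adjusted p = 0.298). Pdlim4, a PDZ and LIM domain protein, was at 84.2 and 79.2 in the WT and 39.0 and 40.8 CPM in the SDHA-KO libraries. Cct6a, a subunit of the cytosolic chaperonin that folds actin and tubulin, was at 736 and 581 in the WT and 349 and 313 CPM in the SDHA-KO libraries. Gm34006 (antisense to Scml4) and Gm20275 (antisense to Myo9a) fell by 1.27 and 1.198 on the log2 scale. Whether the counting used strand is not given for them, so their reads cannot be told apart from those of the genes they overlap. The other genes among the 12 largest falls were Sdha and mt-Cytb.

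Klrd1 and Prf1 fell further but had a mean below the 20 CPM set for the ranking, and were chosen after their values were seen. Klrd1 encodes CD94, a receptor chain of NK cells and CD8+ T cells. It was at 32.4 and 32.2 in the WT and 6.81 and 3.73 CPM in the SDHA-KO libraries (−2.64 ± 0.190, adjusted p = 9.38e-09), and was detected in 16.7 ± 0.729% of WT and 3.71 ± 1.27% of SDHA-KO cells. Prf1, the pore-forming protein of cytotoxic granules, was at 16.4 and 15.7 in the WT and 2.11 and 3.73 CPM in the SDHA-KO libraries (−2.42 ± 0.234, adjusted p = 8.47e-07). The sum of 8 NK and innate-like markers was 50.3 and 48.7 CPM in WT and 10.4 and 10.2 CPM in SDHA-KO. Of the 6 others (Klrb1c, Ncr1, Klre1, Gzma, Zbtb16 and Fcer1g), none exceeded 1.47 CPM in a library.

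For called genes averaging 20 CPM or more, the largest rise besides Cd4 was in Gm42047, annotated as a long intergenic noncoding RNA (chr8:121833247-121841178, plus strand, GRCm38). Gm42047 was at 8.94 and 13.7 in the WT and 55.0 and 50.0 CPM in the SDHA-KO libraries (2.20 ± 0.152, adjusted p = 5.74e-09). It lies within Gm20388, annotated as protein-coding on the same strand, so its counts are less certain. Kcnq5, a voltage-gated potassium channel subunit, was at 15.5 and 18.2 in the WT and 50.6 and 47.3 CPM in the SDHA-KO libraries (1.53 ± 0.129, adjusted p = 8.94e-08). Both lay at a low level in WT and well above it in each SDHA-KO library. Bcl2, the antiapoptotic protein on which naive T cells depend, was the most abundant of the risers other than Cd4, at 288 and 295 in the WT and 648 and 530 CPM in the SDHA-KO libraries (1.01 ± 0.105, adjusted p = 2.06e-06). A Bcl2 UMI was found in 60.4 ± 3.06% of WT and 79.6 ± 2.82% of SDHA-KO cells.

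Igfbp4, an insulin-like growth factor-binding protein typical of naive T cells, was at 281 and 258 in the WT and 517 and 443 CPM in the SDHA-KO libraries (0.83 ± 0.101, adjusted p = 2.11e-05). Tnfsf8, the ligand of CD30, was at 31.5 and 37.1 in the WT and 71.9 and 55.6 CPM in the SDHA-KO libraries (0.89 ± 0.128). Tpi1, the glycolytic triosephosphate isomerase, was at 14.9 and 16.9 in the WT and 30.3 and 29.5 CPM in the SDHA-KO libraries (0.91 ± 0.138). In these genes both SDHA-KO libraries lay above both WT libraries by more than the groups spread. Dip2c and Cdk6, a kinase of the G1 phase, rose by 0.89 and 0.84 on the log2 scale. Socs1, which inhibits cytokine receptor kinases, was at 22.9 and 19.7 in the WT and 59.5 and 34.2 CPM in the SDHA-KO libraries (1.13 ± 0.190, adjusted p = 9.50e-04), but was not called by DESeq2 (adjusted p = 0.259). Gbp2, an interferon-induced GTPase, was at 13.6 and 14.0 in the WT and 33.7 and 20.1 CPM in the SDHA-KO libraries (0.95 ± 0.197).

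**Figure D2:**
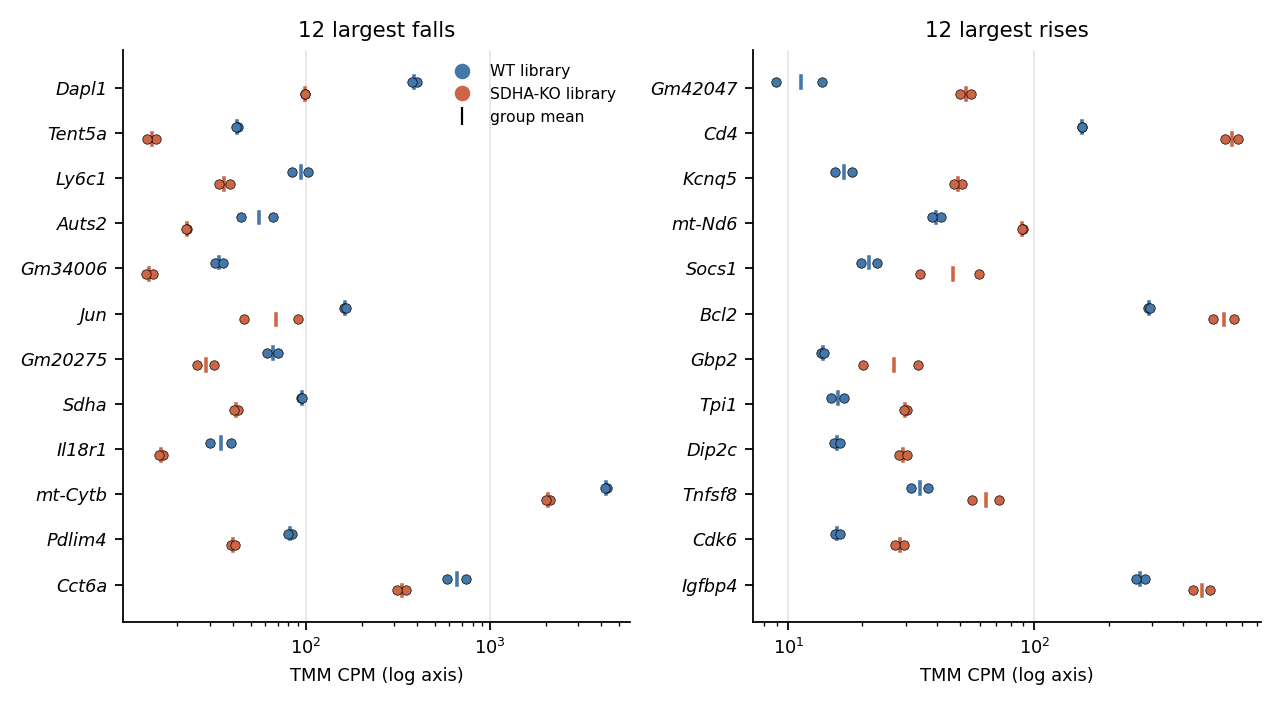
Expression of the 12 genes with the largest fall and the 12 with the largest rise in each library (TMM CPM, log axes), among called genes of at least 20 CPM. Each dot is a library and each tick a group mean, the SDHA-KO dots lie on the same side of both WT dots in every row, and they lie farthest apart from each other for Jun, Socs1 and Gbp2. Cd4 is shown as a description.

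The 4 large clusters gave the same directions. All 23 of these genes other than Cd4 had the same direction in each of Naive1, Naive2, Naive3 and Naive4 analysed alone, 13 were called in each of these clusters, and 21 in at least 2 of them. In Naive5, the cluster of 83 cells, 10 of the 23 had a value, and 9 of these kept their direction. The exception was Jun, with 0.52 (adjusted p = 0.963). Of genes tested, 2.36% were called in Naive1, 2.91% in Naive2, 1.56% in Naive3, 2.39% in Naive4 and 0.724% in Naive5. Clusters share libraries and are not replicates. The 23 genes were also chosen from the sum over these same cells, so no support is drawn from the shared directions. Bcl2 differed by 0.81, 1.36, 0.93 and 1.11 and Dapl1 by −1.69, −1.78, −2.14 and −2.53 from Naive1 to Naive4 on the log2 scale. Gbp2 was uneven, with 0.57, 0.12, 1.78 and 1.31. Restricted to cells with a Cd4 UMI and without a Cd8a, Cd8b1 or Trdc UMI, which kept 420 and 457 WT and 834 and 939 SDHA-KO cells, 255 genes were called, 232 of them among the 386.

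Of the genes that mitochondria encode themselves, most fell. These 13 genes encode parts of every respiratory complex and of ATP synthase except complex II, whose subunits are all nuclear-encoded. Together they made up 3.95 ± 0.0378% of UMIs in WT and 3.29 ± 0.0177% in SDHA-KO. Of the 13, 9 were called lower and 1 higher, with a median log2 fold change of −0.57 against 0.001 over all genes tested. DESeq2 called 11 of the 13. The fall was not even.

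mt-Cytb (chrM:14145-15288), the cytochrome b of complex III, was at 4316 and 4190 in the WT and 2108 and 2017 CPM in the SDHA-KO libraries (−1.04 ± 0.103, adjusted p = 1.00e-06). mt-Nd4, a complex I subunit, was at 1872 and 1849 in the WT and 983 and 967 CPM in the SDHA-KO libraries (−0.93 ± 0.0980, adjusted p = 2.59e-06). In both, SDHA-KO libraries lay close together. mt-Co1 (chrM:5328-6872), the catalytic subunit of complex IV, was at 5097 and 5099 in the WT and 6743 and 6155 CPM in the SDHA-KO libraries (0.34 ± 0.107, adjusted p = 0.0829). mt-Co2 was at 5985 and 5796 in the WT and 6395 and 6205 CPM in the SDHA-KO libraries (0.10 ± 0.105, adjusted p = 0.714). These complex IV genes were thus not called, and neither was mt-Nd1 (−0.23 ± 0.0989, adjusted p = 0.247).

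Read in order of position on the genome, an order chosen after the values were seen, the values were −0.23 for mt-Nd1, −0.68 for mt-Nd2, 0.34 for mt-Co1, 0.10 for mt-Co2, −0.38 for mt-Atp8, −0.40 for mt-Atp6, −0.57 for mt-Co3, −0.80 for mt-Nd3, −0.76 for mt-Nd4l, −0.93 for mt-Nd4, −0.60 for mt-Nd5 and −1.04 for mt-Cytb. From mt-Co1 on, the fall was thus larger for genes farther along the strand, with mt-Nd4l and mt-Nd5 out of order. mt-Atp8 and mt-Atp6, and mt-Nd4l and mt-Nd4, overlap on the same strand, so their counts are less certain. mt-Nd6 (chrM:13552-14070) is the only protein-coding gene of the other strand, and it rose from 41.7 and 38.3 CPM in WT to 89.9 and 88.8 CPM in SDHA-KO (1.16 ± 0.103, adjusted p = 1.94e-07). It overlaps the end of mt-Nd5, and strand use in counting is not given.

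Values in other subsets of the same libraries stand here side by side, with no test of likeness. Of genes tested in each subset alone, 5.00% were called in CD8 naive, 7.83% in CD4 Tem, 0.706% in CD4 Treg and 0.496% in CD8 central memory cells. mt-Cytb differed by −0.61 in CD8 naive cells, by −0.80 in CD4 Treg cells and by −0.37 in CD4 Tem cells. mt-Co1 differed by 0.30, 0.53 and −0.25, and mt-Nd6 by 1.13, 1.99 and 0.31, in the same order. In CD4 Tem cells mt-Nd6 was not called. In CD8 central memory cells mt-Cytb differed by −0.36, mt-Co1 by −0.047 and mt-Nd6 by 0.032, and none of the 3 was called.

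**Figure D3:**
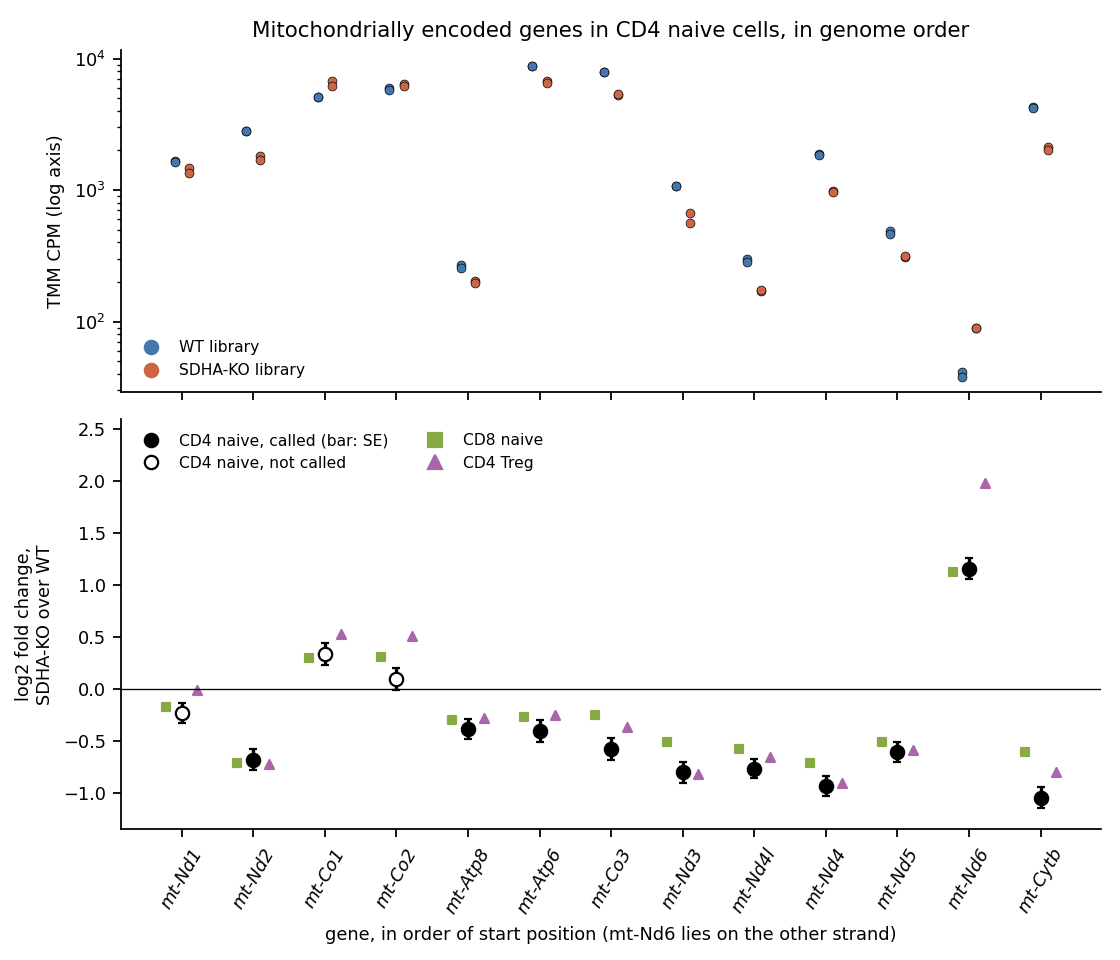
The 13 mitochondrially encoded genes in order of start position. The upper panel gives TMM CPM of each library of naive CD4 cells on a log axis, and the lower panel the log2 fold change of SDHA-KO over WT, with circles and SE bars for CD4 naive cells (filled where called), squares for CD8 naive and triangles for CD4 Treg cells. Values run from −1.04 for mt-Cytb to 1.16 for mt-Nd6 in CD4 naive cells.

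For nuclear genes of the same machinery, 0 were called by edgeR or by DESeq2, beside 3.57% of all genes by edgeR. Of 7 other genes of complex II and its assembly, 0 were called and 1 had an unadjusted p under 0.05, and their median was −0.018. Sdhb, the iron-sulfur subunit that pairs with SDHA, was at 76.6 and 66.2 in the WT and 72.1 and 65.2 CPM in the SDHA-KO libraries (−0.056 ± 0.104). Of 36 nuclear-encoded complex I genes 0 were called and 1 had an unadjusted p under 0.05 (median −0.042). Of 35 genes of complexes III to V these numbers were 0 and 2 (median −0.065), and of 20 other TCA cycle genes 0 and 3 (median −0.038). Ndufa13, a complex I subunit, was at 260 and 266 in the WT and 274 and 241 CPM in the SDHA-KO libraries (−0.031 ± 0.0962), and Mdh2, the mitochondrial malate dehydrogenase, at 119 and 112 against 117 and 103 CPM (−0.072 ± 0.0980). Atp5e, a subunit of ATP synthase, was at 714 and 727 in the WT and 672 and 564 CPM in the SDHA-KO libraries (−0.22 ± 0.102, adjusted p = 0.279). It was called without SDHA-KO replicate 1 and in Naive4 alone (adjusted p = 0.0205). Uqcrh, a subunit of complex III, was at 585 and 569 in the WT and 527 and 501 CPM in the SDHA-KO libraries (−0.17 ± 0.0940, adjusted p = 0.400) and was called without SDHA-KO replicate 1 (adjusted p = 0.0204).

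Other metabolic lists are given beside the 1.12% of all genes called higher and the 2.45% called lower. Of 18 glycolysis and lactate genes 2 rose, Tpi1, whose 3′ end overlaps Spsb2, and Eno1, the enolase (0.38 ± 0.1002, adjusted p = 0.0354), and the median was 0.10. Of 13 targets of the hypoxia factor HIF-1, 3 rose. Ankrd37 was at 4.47 and 4.04 in the WT and 15.3 and 13.4 CPM in the SDHA-KO libraries (1.75 ± 0.213, adjusted p = 2.11e-05), and Ndrg1 and P4ha1, a collagen prolyl hydroxylase, rose by 0.89 and 0.46 on the log2 scale. Of 18 fatty acid oxidation genes 1 rose, Cpt1a, the carnitine palmitoyltransferase that admits long-chain fatty acids to mitochondria (0.82 ± 0.184, adjusted p = 0.0120). By DESeq2, 1 of the glycolysis and lactate genes, 1 of the HIF-1 targets and 0 of the fatty acid oxidation genes were called. Of 15 genes of amino acid, aspartate and pyrimidine synthesis, 14 of the integrated stress response, 17 antioxidant and 17 sterol synthesis genes, 0 were called by edgeR or DESeq2, with 2, 4, 2 and 4 at an unadjusted p under 0.05. In the same order, their medians were 0.14, 0.16, 0.021 and 0.13, beside 0.001 over all genes tested. The log2 fold change was positive in 13, 12, 10 and 14 of them. Atf4, the main factor of the integrated stress response, was at 45.1 and 44.7 in the WT and 49.8 and 41.3 CPM in the SDHA-KO libraries. Of 90 ribosomal protein genes tested and 13 S phase and mitosis genes, 0 were called by either tool over all naive cells, with 4 and 2 at an unadjusted p under 0.05. Rps27 was at 12467 and 12386 in the WT and 10891 and 9249 CPM in the SDHA-KO libraries (−0.30 ± 0.115, adjusted p = 0.171), and Rps29 at 16149 and 16044 against 14140 and 12367 CPM (−0.28 ± 0.114, adjusted p = 0.211). The SDHA-KO libraries differed from each other in both genes more than the WT libraries did. Both genes were called lower in each of Naive1 to Naive4 alone and in the fits without either SDHA-KO library, and in neither fit that left out a WT library. Rps27 was also called with no filter on low counts (adjusted p = 0.0376). Hmgb2, a chromatin protein of the S phase and mitosis list, was called lower in Naive1 and Naive4 alone and without SDHA-KO replicate 2.

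**Figure D4:**
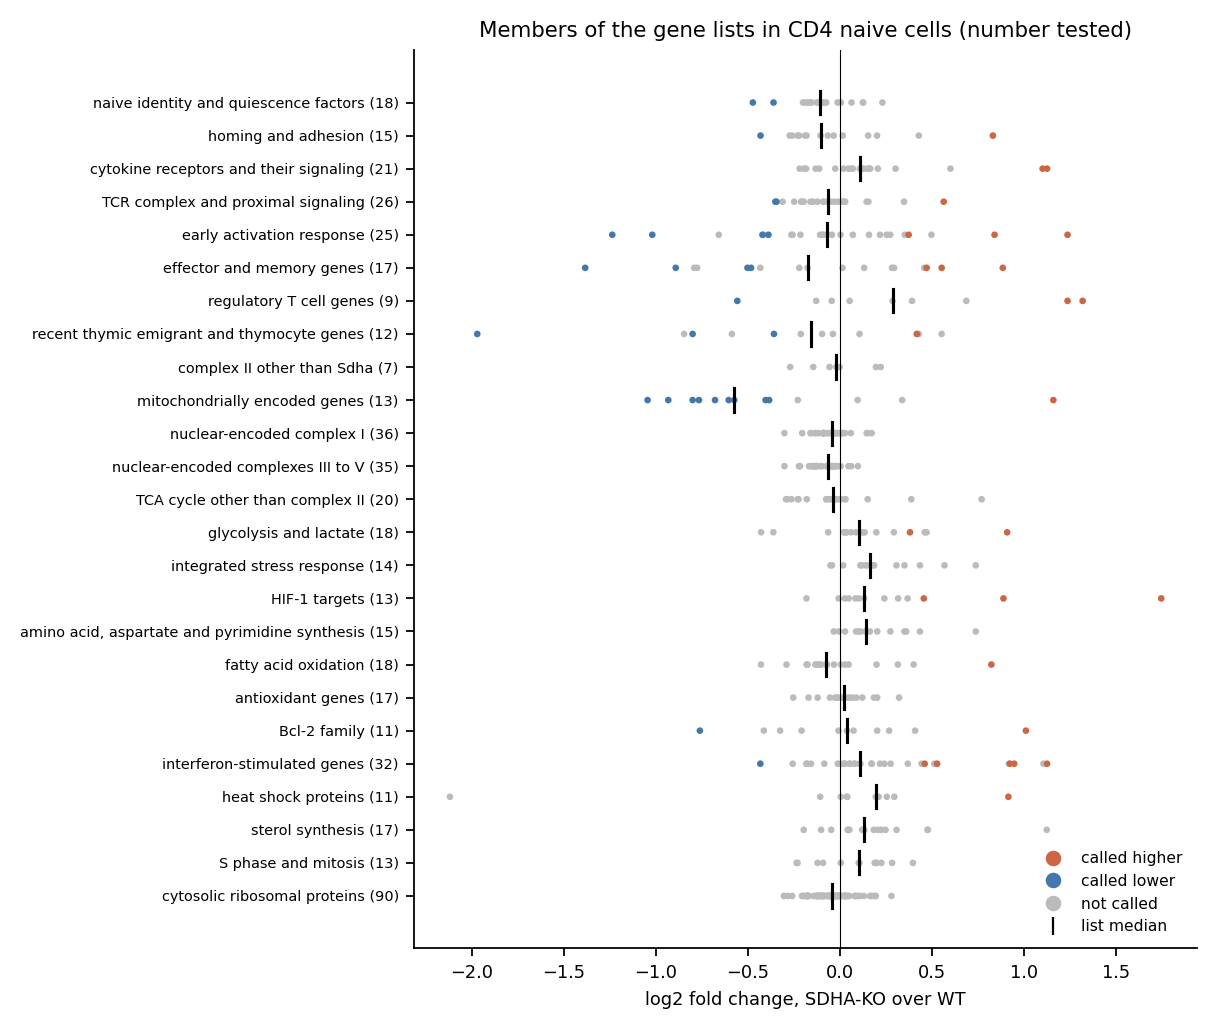
Log2 fold change of SDHA-KO over WT of every tested member of 25 gene lists in naive CD4 cells, without genes used in the annotation (dots, coloured where called), with the list median as a black tick and the number tested in brackets. The mitochondrially encoded genes have the lowest median (−0.57), and medians of nuclear-encoded ETC and TCA genes lie between −0.065 and −0.018.

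The 10 genes that the annotation or the choice of cells used, among them Cd4, Cd44, Il7r, Ccr7, Tcf7 and Lef1, are left out of the counts of the lists below. In the fit over all genes, 1 of the 10 was called higher, Cd4, and 2 lower, Il7r and Cd44. Nothing is read from these calls, since the 10 genes helped to choose the cells. For the lists below, the shares over all genes were again 1.12% higher and 2.45% lower. Of 18 naive identity and quiescence factors, 0 were called higher and 2 lower, with a median of −0.11, and DESeq2 called 1 of the 18. Btg1 and Btg2, antiproliferative factors that favour mRNA decay in quiescent T cells, fell by 0.36 and 0.47 on the log2 scale (adjusted p = 0.0459 and 0.0341). Klf2, which drives expression of homing receptors, was at 716 and 760 in the WT and 724 and 665 CPM in the SDHA-KO libraries. Of 15 homing and adhesion genes 1 rose, Igfbp4, and 1 fell, Itga6, the integrin α6 chain (−0.43 ± 0.101, adjusted p = 0.0175). Of these 15, DESeq2 called 1. S1pr1, the receptor for exit from lymphoid tissue, was at 364 and 377 in the WT and 385 and 439 CPM in the SDHA-KO libraries (0.15 ± 0.0971, adjusted p = 0.464).

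Of 26 genes of the TCR complex and its proximal signaling, 1 was higher and 2 lower, and DESeq2 called 4 of the 26. Cd3d and Cd3g, invariant chains of the receptor, fell by 0.35 and 0.34 on the log2 scale, with adjusted p of 0.0498 and 0.0480, close to the threshold. Ptpn6, the phosphatase SHP-1 that dampens TCR signaling, was at 67.3 and 59.5 in the WT and 91.4 and 95.8 CPM in the SDHA-KO libraries (0.56 ± 0.101, adjusted p = 0.00172). Of 21 genes of cytokine receptors and their signaling, Socs1 and Cish, another inhibitor of JAK-STAT signaling, rose and 0 fell, and DESeq2 called 0 of them. Il7r, the IL-7 receptor chain, was at 462 and 454 in the WT and 356 and 354 CPM in the SDHA-KO libraries. Il7r was among the genes used to name the clusters, and these levels are a description.

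Of 25 early activation genes, 3 rose and 4 fell, and DESeq2 called 2 of the 25. The falls were all in AP-1 subunits. Beside Jun, Fosb was at 12.7 and 11.5 in the WT and 4.46 and 7.26 CPM in the SDHA-KO libraries (−1.02 ± 0.224, adjusted p = 0.0107), and Junb and Jund fell by 0.39 and 0.42 on the log2 scale. Fos was at 38.0 and 30.2 CPM (WT) and 24.0 and 26.9 CPM (SDHA-KO) and was not called (adjusted p = 0.0884). Nfkbia, the NF-κB inhibitor, rose by 0.37, and Tnfrsf4 and Il2ra, receptors induced on activated cells, rose by 0.84 and 1.24 on the log2 scale from at most 5.96 CPM in a WT library. Nr4a1, a direct readout of TCR signaling, was at 13.4 and 13.1 in the WT and 9.63 and 15.4 CPM in the SDHA-KO libraries, and Cd69, an early activation antigen, at 98.9 and 86.5 against 70.3 and 84.5 CPM. In neither did the test pass.

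Of 17 effector and memory genes tested, 3 were higher and 4 lower, with a median of −0.18, and DESeq2 called 5 of the 17. Tnfsf8, Id2, a repressor of E proteins (0.55 ± 0.109), and Vim, an intermediate filament protein (0.47 ± 0.109), rose. Ly6c1, Maf (−0.89 ± 0.227), Crip1 (−0.50 ± 0.0973) and S100a11 (−0.48 ± 0.104) fell. Cd44, which served to name the clusters and is given as a description, stood at 18.4 and 15.7 in the WT and 10.6 and 11.7 CPM in the SDHA-KO libraries. Of 9 regulatory T cell genes tested, 2 rose and 1 fell, and DESeq2 called 2 of the 9. Ikzf2, the factor Helios, was at 8.39 and 5.56 in the WT and 22.9 and 12.1 CPM in the SDHA-KO libraries (1.32 ± 0.262, adjusted p = 0.00465), Il2ra rose, and Izumo1r, the folate receptor 4, fell by 0.56 on the log2 scale. An Ikzf2 UMI was found in 2.78% and 3.39% of WT and 5.23% and 3.87% of SDHA-KO cells. Ikzf2 differed by 2.38 in Naive1, 1.10 in Naive3 and 0.16 in Naive4, and it was not called in cells with a Cd4 UMI and no Cd8a, Cd8b1 or Trdc UMI (0.995, adjusted p = 0.0889) or in the joint fit with the stimulated CD4 cells (adjusted p = 0.0942). Foxp3 stood at 2.42 and 1.18 in the WT and 3.41 and 2.12 CPM in the SDHA-KO libraries. Of 12 genes of recent thymic emigrants and thymocytes, Tox rose by 0.42, and Dapl1, Dgka and Slc16a5 fell. Here DESeq2 called 3 of the 12.

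Among 11 Bcl-2 family genes, Bcl2 rose and Bcl2a1b fell, from 22.2 and 17.9 CPM in WT to 9.63 and 13.7 CPM in SDHA-KO (−0.76 ± 0.176, adjusted p = 0.0154). DESeq2 called 1 of the 11. Bcl2a1b has near-identical copies, between which the counting could split reads. Mcl1 was at 191 and 171 in the WT and 196 and 185 CPM in the SDHA-KO libraries, and Bcl2l11, the proapoptotic BIM, at 28.5 and 30.3 against 29.7 and 30.8 CPM, and neither was called. Of 32 interferon-stimulated genes 5 rose and 1 fell, and DESeq2 called 3 of the 32. Ifit1 was at 22.2 and 22.9 in the WT and 31.4 and 33.7 CPM in the SDHA-KO libraries (0.53 ± 0.126), and Ifit3, another antiviral tetratricopeptide protein, was at 11.7 and 11.97 in the WT and 25.7 and 19.6 CPM in the SDHA-KO libraries (0.93 ± 0.167). Isg15, Gbp2 and Socs1 also rose, and Ly6e, a surface antigen, fell from 296 and 313 CPM to 231 and 221 CPM (−0.43 ± 0.0930). Of 11 heat shock proteins 1 rose, Hsph1, the cochaperone HSP110 (0.92 ± 0.202), 0 fell, and DESeq2 called 0 of the 11. In this list 5 genes had an unadjusted p under 0.05, the log2 fold change was positive in 9, and the median was 0.20. The largest change in the list was downward, at −2.12 on the log2 scale, in a gene that was not called.

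Some of these calls rest on single libraries or on the test. Of 37 called genes (Sdha, the largest falls and rises, the most changed called members of each list, Klrd1 and Prf1, without the annotation genes), 26 stayed called when each library was left out in turn and with DESeq2. The other 11 were Jun, Socs1, Btg2, Itga6, Cd3d, Il2ra, Tox, Cpt1a, Bcl2a1b, Ly6e and Hsph1. Called list members named beside these 37 were not part of this check. Over all genes, DESeq2 kept 146 of the 386 calls.

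The effect of SDHA-KO in naive CD4 cells was next set against that in naive CD8 cells of the same libraries, with the difference of the effects tested by edgeR with the library as a block. Of 10718 genes, 51 (0.476%) differed, 31 with a more positive and 20 with a more negative effect in CD4 cells. The genes changed most in CD4 naive cells were not among them, except Klrd1, Auts2, Il18r1, mt-Cytb and Socs1. Side by side, Dapl1 differed by −1.97 in CD4 and −2.08 in CD8 naive cells, Bcl2 by 1.01 and 0.74, Igfbp4 by 0.83 and 1.04, Gm42047 by 2.20 and 1.78, and Sdha by −1.18 and −1.54.

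Socs1 rose in CD4 naive cells as given above and was at 33.5 and 27.2 in WT against 37.1 and 17.5 CPM in SDHA-KO CD8 naive cells. Ms4a4c, a tetraspanning membrane protein, was at 19.9 and 25.8 in WT against 43.7 and 23.1 CPM in SDHA-KO CD4 cells, and at 80.1 and 118 in WT against 60.4 and 33.5 CPM in SDHA-KO CD8 cells. The CD4 groups overlapped, and the CD8 groups did not. Slfn5, a Schlafen family protein, was at 59.1 and 58.1 in WT against 59.8 and 45.1 CPM in SDHA-KO CD4 cells, and at 24.2 and 22.4 against 9.18 and 9.52 CPM in CD8 cells. B630019A10Rik followed Slfn5, with 67.8 and 78.7 against 70.1 and 72.1 CPM in CD4 cells and 16.7 and 29.4 against 9.18 and 11.1 CPM in CD8 cells. For both genes the genotypes overlapped in CD4 cells and not in CD8 cells.

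In the other direction, Klrd1 was at 235 and 232 in WT against 130 and 111 CPM in SDHA-KO CD8 naive cells, a smaller relative fall than in CD4 cells. Actn2, an actin-crosslinking α-actinin, was at 12.1 and 9.27 in WT against 3.76 and 3.43 CPM in SDHA-KO CD4 cells, and at 58.6 and 44.6 against 34.3 and 40.5 CPM in CD8 cells. Stmn1, a microtubule-destabilizing protein, was at 59.1 and 55.6 in WT against 63.3 and 52.0 CPM in SDHA-KO CD4 cells, and at 14.1 and 8.35 against 23.0 and 20.6 CPM in CD8 cells. Slbp, which binds histone mRNA, was at 43.8 and 41.1 in WT against 29.0 and 29.0 CPM in SDHA-KO CD4 cells, and at 42.8 and 32.7 against 39.6 and 45.8 CPM in CD8 cells.

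**Figure D5:**
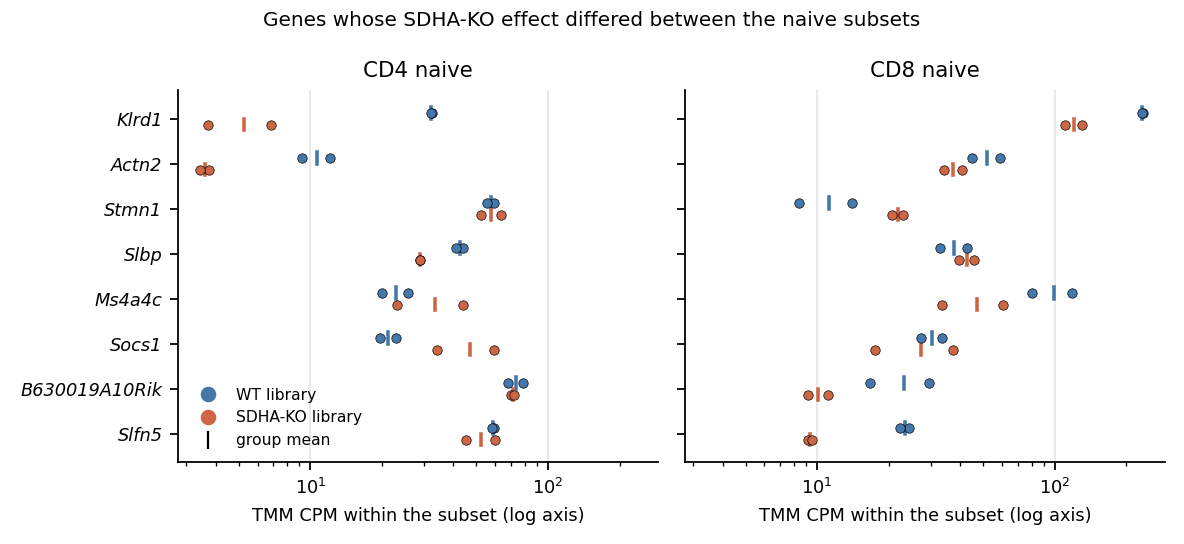
Expression by library, in TMM CPM on log axes, of the 4 genes with the most negative (Klrd1, Actn2, Stmn1, Slbp) and the 4 with the most positive (Ms4a4c, Socs1, B630019A10Rik, Slfn5) difference of the SDHA-KO effect, CD4 naive minus CD8 naive. Dots are libraries and ticks group means, and for B630019A10Rik and Slfn5 the genotypes overlap in CD4 cells and lie apart in CD8 cells.

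Against CD4 Tem cells the effect differed for 256 of 10591 genes (2.42%), 119 with a more positive and 137 with a more negative effect in naive cells. The Tem cells differed between genotypes in a γδ T cell marker, with a Trdc UMI in 1 of 86 and 0 of 79 WT and in 31 of 67 and 38 of 91 SDHA-KO Tem cells, against 3.14% to 4.93% of naive CD4 cells in all 4 libraries. An alternative added after seeing the data left out every cell with a Trdc UMI and called 407 genes. Kcnq5 was among the genes whose effects had opposite signs. It rose in naive cells and was at 229 and 224 CPM (WT) and 123 and 77.8 CPM (SDHA-KO) Tem cells.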

How the data were processed

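Splenic T cells were profiled with 10x Genomics Chromium 3′ HT v3.1 libraries. The authors processed reads with bcl2fastq and Cell Ranger, with mm10 per the submitters' processing notes, combined the libraries with Seurat, and discarded cells with too many detected genes as well as clusters that lacked CD3. They deposited raw UMI counts per gene and cell, with a table of the UMI and gene counts of each cell, its annotated class and subset, and its percent of mitochondrial UMIs, all made by the authors from these counts. Tool versions upstream of Seurat and the strand setting of the counting are not given in the sources used here. Recomputed totals differed from the table in 0 cells. The table's Cd4 to Cd8a ratio was not used, and no doublet caller was run, so doublets that passed the authors' filters remain.

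Counts were summed over the naive CD4 cells of each of the 4 unstimulated libraries, since cells of 1 library are not replicates. Genes were kept with filterByExpr (minimum count 10, minimum total 15), scaled with TMM and tested with glmQLFit and glmQLFTest of edgeR 4.0.16 in R 4.3.3, with 2 residual degrees of freedom and an adjusted p below 0.05 as the threshold. The common dispersion was 0.00444, a spread of 6.66% between libraries. The prior degrees of freedom had a median of 19.4 beside the 2 residual ones, so a gene's variance estimate came mostly from other genes. The 10 genes used in the annotation or in choosing the cells stayed in the fit over all genes but were left out of the list counts and of the named genes, a choice made after the results were seen. Shares of cells were not tested. For 2 against 2 libraries the smallest exact permutation p is 0.33. Intervals and SE values over UMIs cover counting and library spread only. The difference of effects between subsets was tested in a fit of both subsets' sums with the library as a block. Alternatives used DESeq2 1.42.0, limma 3.58.1, other scaling, filters and cells. The test was checked on simulated data. Shares were thinned to 3000 UMIs per cell, and ratios between subsets used 1 CPM as pseudocount. Python 3.11.15 was used for values per cell. Genes named were Sdha, the 12 largest rises and 12 largest falls among called genes of at least 20 CPM with non-overlapping groups, in each list the called member with the largest rise and fall, or else the 2 with the highest level, and the 4 most positive and 4 most negative differences of each comparison of subsets. Other called list members, and Klrd1, Prf1, Malat1, Igkc and the single members given as not called, were added after their values were seen. The cells, lists and rules were chosen with earlier results of these data known. Coordinates are from GENCODE vM21 (GRCm38), matched by symbol.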

Additional observations from a re-analysis of the deposited data

Results flagged for a closer look

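With 2 libraries in a group, single outlying libraries could not be tested for. The results below stand out because the SDHA-KO effect in naive CD4 cells differed from that in another subset of the same libraries by a test of the difference itself (edgeR, library as a block, log2 scale, adjusted over all genes tested). No cause was tested.

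Against CD8 naive cells the difference was 1.62 ± 0.150 for Ms4a4c (SE, adjusted p = 4.43e-08), 1.29 ± 0.179 for Socs1, 1.16 ± 0.223 for B630019A10Rik and 1.13 ± 0.218 for Slfn5. It was −1.68 ± 0.173 for Klrd1 (adjusted p = 2.92e-07), −1.12 ± 0.246 for Actn2, −1.002 ± 0.218 for Stmn1 and −0.75 ± 0.162 for Slbp.

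Against CD4 Tem cells the difference was 2.73 ± 0.219 for Kcnq5 (adjusted p = 3.99e-10), 2.64 ± 0.726 for Gpm6b, 2.13 ± 0.360 for Ephx1 and 2.08 ± 0.572 for Myc. Gpm6b and Ephx1 averaged 58.7 and 42.9 CPM in WT Tem cells and 14.3 and 11.3 CPM in SDHA-KO Tem cells, whereas in naive cells they averaged 1.09 and 27.7 CPM in WT and 1.57 and 31.9 CPM in SDHA-KO. Myc averaged 16.2 and 4.51 CPM in WT and SDHA-KO Tem cells and 25.4 and 30.4 CPM in naive cells.

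The difference was −6.33 ± 0.576 for Trdc, the γδ T cell receptor constant chain, which averaged 1.47 CPM in WT and 160 CPM in SDHA-KO Tem cells and 8.27 and 11.3 CPM in naive cells. It was −5.04 ± 0.391 for Actn2, which averaged 12.7 and 144 CPM in Tem and 11.8 and 3.98 CPM in naive cells. The fitted differences of Ccr2 (−6.41) and Tbx21 (−5.29) depend on the prior count, because both genes had 0 UMIs in the naive cells of the SDHA-KO libraries and averaged 0.577 and 0.856 CPM in those of WT. In Tem cells Ccr2 averaged 35.2 and 163 CPM and Tbx21 35.4 and 52.1 CPM in WT and SDHA-KO.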

How the results depend on the processing

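The number of genes called between SDHA-KO and WT naive CD4 cells (386) ranged from 231 to 903 with each library left out in turn, was 154 with DESeq2, 5 with limma on mean log-normalised values, 182 without composition normalization, 646 without a filter on low counts, 103 with a 2-fold minimum, 103 in a joint fit with stimulated CD4 cells and 255 in cells with a Cd4 UMI and no Cd8a, Cd8b1 or Trdc UMI. Of the clusters alone, Naive1 gave 212, Naive2 250, Naive3 130, Naive4 178 and Naive5 16. TMM moved the median of all genes by under 0.1, and the share of higher among called genes was 31.3%, against 40.7% without it. The 51 genes that differed from CD8 naive cells became 22 with DESeq2 and 102 without the filter, and 50 to 194 with a library left out. The 256 that differed from CD4 Tem cells became 127 with DESeq2, 407 without cells holding a Trdc UMI (added after seeing the data), and 126 to 314 with a library left out. No cause of these shifts was tested, and clusters and restricted cells hold fewer UMIs by construction. Limma voom, DESeq2 size factors, cells under 10% mitochondrial UMIs and thinned libraries kept the main count within 1.5 times. Of 37 called named genes, 2 changed sign in Naive5 alone (Jun to 0.52 and Izumo1r to 0.40, neither called there) and 0 under the other alternatives. Limma on mean log-normalised values still called 2 of the 37 and the joint fit 24. With the replicate number as a block, 764 genes were called, 385 of the 386 among them. The numbers share only a name, since same-numbered libraries deviated with a correlation of 0.0359, so this fit gives no paired result.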

Other observations

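Tested genes near Cd4 and near Sdha were read in genome order, a choice made after the values were seen and given as description. Of 30 tested genes within 500 kb of Cd4 (chr6:124864692-124888221, GRCm38), 3 were called higher, as against 1.12% of all genes, and 1 lower. The median log2 fold change of the 30 was 0.045. The higher genes all lay on the same side of Cd4. On that side Spsb2 went the other way, at 2.61 and 2.87 in the WT and 1.64 and 1.31 CPM in the SDHA-KO libraries (−0.89 ± 0.408, not called). Tpi1 (chr6:124810586-124814296), whose 3′ end overlaps that of Spsb2 on the other strand, is 50.4 kb away, and Atn1, a transcriptional corepressor, was at 20.3 and 24.8 in the WT and 34.4 and 29.4 CPM in the SDHA-KO libraries (0.49 ± 0.137 on the log2 scale, adjusted p = 0.0476 in edgeR). Ptpn6, 126 kb away, was the third. Cd27, a costimulatory receptor on the other side, was at 225 and 224 in the WT and 177 and 172 CPM in the SDHA-KO libraries (−0.37 ± 0.0921, adjusted p = 0.0275). Usp5, 35.2 kb from Cd4, differed by 0.31 ± 0.169 and Gapdh by 0.062 ± 0.0923, and neither was called. Within 500 kb of Sdha, 0 of 14 tested genes were called by edgeR or DESeq2 and 0 had an unadjusted p under 0.05, with Ccdc127, the nearest, at 21.4 and 20.1 in the WT and 24.9 and 23.7 CPM in the SDHA-KO libraries. What links position and level was not tested.

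Malat1 was at 19904 and 19574 in the WT and 13379 and 14696 CPM in the SDHA-KO libraries (−0.49 ± 0.114, adjusted p = 0.0154 in edgeR), and the mitochondrial share of UMIs was lower in both SDHA-KO libraries as well. Ighm was at 155 and 147 in the WT and 89.5 and 88.7 CPM in the SDHA-KO libraries (−0.76 ± 0.0943, adjusted p = 2.55e-05), whereas Igkc was at 0.559 and 2.19 in the WT and 19.4 and 3.63 CPM in the SDHA-KO libraries. In SDHA-KO replicate 1, a single cell held 60 of the 165 Igkc UMIs. Whether free RNA of other cells contributed to these genes was not tested.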
